A study of Mus musculus with 5 samples.

Results

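Immediate early genes are the genes that neurons switch on within minutes of synaptic activity, from transcription factors already present in the cell. A list of 39 such mouse genes was followed through ATRX peak lists, out of 21883 protein-coding genes on chromosomes 1 to 19, X and Y of the GRCm38.p6 RefSeq annotation. The genes were listed by name, and all 39 were found in the annotation, Cyr61 under its current symbol Ccn1. For each gene, peak summits within 1 kb of either end of its annotated span (gene-end summits) and summits inside the span (gene-body summits) were taken from every list, with the width of the peak and its fold rank in the list. The strongest gene-end peak is the one with the highest fold. The genes were chosen by name with the gene-end peaks of these lists in view, the fold rank of Egr1 in the mCherry DIV14 list among them, so the counts, ranks and widths below describe the genes and are not tests.

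Sites of ATRX were mapped by ChIP-seq, the sequencing of DNA bound by an antibody's target, in primary neurons from C57BL6/J mouse embryos, all given lentivirus on day 5 in vitro. The 4 groups were neurons with TBC1D3, a hominoid gene that mice lack, at day 14 in vitro (DIV14), neurons with a construct labelled MICAL1-M1 at DIV14, neurons with the fluorescent protein mCherry at day 7 (DIV7), and neurons with mCherry at DIV14. Each group had 1 library, so no value has a replicate error and no test between groups could be made. All groups were cultured in a Neurobasal A and B27 medium with glutamine and fetal bovine serum, and the labels name no stimulus. The labels do not name transgene promoters or the number of animals behind a culture. Input DNA of the series was not analysed here.

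In neurons, calcium entry through NMDA receptors and voltage-gated channels starts signalling to CREB, SRF partners and MEF2, factors that regulate many such genes. The products are mostly transcription factors, together with secreted proteins, synaptic proteins and phosphatases that limit the signal. ATRX is a chromatin remodeller that deposits the histone variant H3.3 together with DAXX, is best known at repeats, telomeres and imprinted loci, and is mutated in a syndrome with intellectual disability. Peak lists hold no expression values, so neither the induction of these genes nor the cell type of the cultures could be read from them.

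The lists held 199059 peaks for TBC1D3 DIV14, 141387 for MICAL1-M1 DIV14, 213982 for mCherry DIV7 and 96670 for mCherry DIV14. Fold and p of a peak follow from a whole number of fragments at the summit (the pileup) and a locally expected number, and both could be recovered for 99.94% to 99.98% of peaks. The most frequent expected level, which stands for depth, was 1.22 fragments in TBC1D3 DIV14, 2.61 in MICAL1-M1 DIV14, 1.28 in mCherry DIV7 and 3.56 in mCherry DIV14. The lists hold every peak up to an uncorrected p of about 0.05. Peaks with a q-value (the p-value corrected over the genome) of at most 0.05 numbered 409 in TBC1D3 DIV14, 655 in MICAL1-M1 DIV14, 506 in mCherry DIV7 and 4049 in mCherry DIV14. A gene without a gene-end summit is therefore a gene where no peak with its summit within 1 kb of an end passed the p limit at that depth. A peak with its summit elsewhere can still reach the end. Counting any base of a peak, 35 of the 39 genes were reached in mCherry DIV14, against 31 by summit. Folds are used within a list only.

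Gene-end summits were found for 19 of the 39 genes in TBC1D3 DIV14 (48.7%, against 33.4% of all protein-coding genes), for 33 in MICAL1-M1 DIV14 (84.6%, against 38.7%), for 20 in mCherry DIV7 (51.3%, against 33.2%) and for 31 in mCherry DIV14 (79.5%, against 42.3%). The lists thus fell into a sparse pair and a full pair for these genes, and the sparse pair were the libraries with the lower expected level. The part of depth in these counts was not tested. With every list reduced to its strongest peaks by p, as many as the smallest list holds, the counts were 10 in TBC1D3 DIV14, 31 in MICAL1-M1 DIV14, 13 in mCherry DIV7 and 31 in mCherry DIV14, against 19.2%, 33.4%, 17.6% and 42.3% of all genes in that order of lists. Many peaks have the same p at that cut and were kept in file order. The counts and shares of the longer lists therefore depend in part on that order.

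The 39 genes are short, from 1199 bp for Ier3 to 101373 bp for Homer1 with a median of 5339 bp, against a median of 17170 bp for all protein-coding genes. Among the 25 that span at most 10 kb, 9 had a gene-end summit in TBC1D3 DIV14 (27.6% of all genes of that length), 24 in MICAL1-M1 DIV14 (26.3%), 14 in mCherry DIV7 (28%) and 22 in mCherry DIV14 (28.3%). All 39 had a gene-end summit in at least 1 list, whereas 27% of protein-coding genes had none in any. In all 4 lists there was such a summit for 9 genes, against 6.24% of protein-coding genes: Egr1, Junb, Arc, Dusp5, Dusp6, Nptx2, Gadd45b, Gadd45g and Atf3. A further 12 genes had one in 3 lists, 13 in 2 lists and 5 in 1 list. Fosb and Homer1 had one in mCherry DIV14 and in none of the other 3 lists (6.43% of all genes). Jun, Klf4, Klf6, Klf10, Dusp1, Btg2, Rgs2 and Cyr61 had one in MICAL1-M1 DIV14 and mCherry DIV14 and in neither sparse list (8.74% of all genes).

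**Figure D1:**
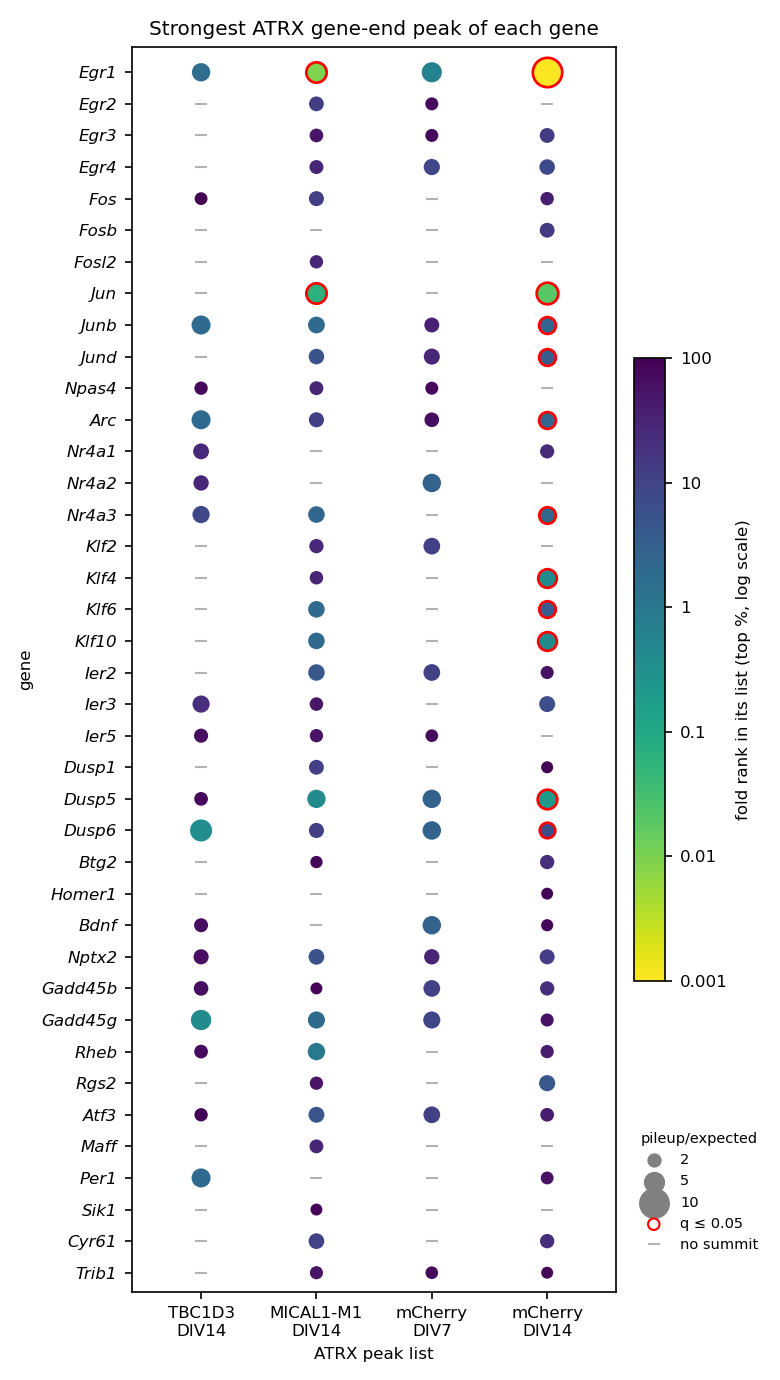
Strongest gene-end ATRX peak of each of the 39 genes (rows) in the 4 peak lists (columns). The size of a point is the pileup over the locally expected number of fragments, its colour the fold rank in the list as a top percentage on a log scale, a red ring a q of at most 0.05, and a dash means no summit within 1 kb of a gene end. Ringed genes number 2 in MICAL1-M1 DIV14 and 11 in mCherry DIV14, and Egr1 in mCherry DIV14 has the highest rank.

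Among peaks with a q of at most 0.05, none of the 39 genes had a gene-end summit in TBC1D3 DIV14 (0.146% of all genes) or mCherry DIV7 (0.228%). In MICAL1-M1 DIV14 there were 2, Egr1 and Jun (1.33% of all genes). In mCherry DIV14 there were 11, namely Egr1, Jun, Junb, Jund, Arc, Nr4a3, Klf4, Klf6, Klf10, Dusp5 and Dusp6 (8.46% of all genes). Pileups at the strongest gene-end summits ran from 3 to 8 fragments in TBC1D3 DIV14 (median 5), from 5 to 32 in MICAL1-M1 DIV14 (median 10), from 3 to 8 in mCherry DIV7 (median 5) and from 7 to 46 in mCherry DIV14 (median 14). Pileups of single genes are given with an exact Poisson interval at 95% where shown, which covers counting error only; since every summit is the highest point of a called peak, it is no test of enrichment. Many of the sparse lists' peaks at these genes rest on 3 to 5 fragments. With the 4000 strongest peaks of each list, 3 of the 39 genes had a gene-end summit in TBC1D3 DIV14 (1.99% of all genes), 10 in MICAL1-M1 DIV14 (5.95%), 1 in mCherry DIV7 (1.3%) and 11 in mCherry DIV14 (8.4%).

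Egr1 encodes a zinc finger transcription factor, also known as Zif268, whose induction marks active neurons. It spans 34861207 to 34864956 on chromosome 18 (GRCm38). Its strongest gene-end summit had 8 fragments in TBC1D3 DIV14, 32 in MICAL1-M1 DIV14, 7 in mCherry DIV7 and 46 in mCherry DIV14. The expected numbers there were 1.73, 5.77, 1.28 and 4.46 in the same order, and the intervals of the pileups were 3.45 to 15.8, 21.9 to 45.2, 2.81 to 14.4 and 33.7 to 61.4. The pileup was highest in mCherry DIV14 and lowest in mCherry DIV7. By fold the peak ranked 3400 in TBC1D3 DIV14 (3.29-fold), 13 in MICAL1-M1 DIV14 (4.87-fold), 1328 in mCherry DIV7 (3.50-fold) and 1 of all peaks in mCherry DIV14 (8.61-fold). It was 746 bp wide in TBC1D3 DIV14, 1668 bp in MICAL1-M1 DIV14, 804 bp in mCherry DIV7 and 3571 bp in mCherry DIV14. In every list the summit lay outside the gene, before its lower-numbered end, at −694 bp from it in TBC1D3 DIV14, −213 bp in MICAL1-M1 DIV14, −270 bp in mCherry DIV7 and −322 bp in mCherry DIV14. The 3 narrower peaks lay wholly within the mCherry DIV14 peak.

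The other EGR factors, relatives of Egr1 with the same type of DNA-binding domain, had weaker gene-end peaks. For Egr2, which spans several annotated starts, the strongest gene-body summit of mCherry DIV14 had 23 fragments where 5.30 were expected (3.81-fold, rank 697, q = 0.00022) and lay 100 bp from an annotated start inside the span. The MICAL1-M1 DIV14 peak over the same place had 7 fragments with 3.11 expected, and neither TBC1D3 DIV14 nor mCherry DIV7 had a peak that overlapped it. At its ends, Egr2 had summits of 8 fragments in MICAL1-M1 DIV14 (2.61 expected, rank 18427) and 3 in mCherry DIV7 (1.28 expected, rank 164464) and none in TBC1D3 DIV14 or mCherry DIV14. Another Egr2 body peak of mCherry DIV14, with 16 fragments (q = 0.0363), was overlapped by peaks of MICAL1-M1 DIV14 and mCherry DIV7. The gene-end window thus missed the main Egr2 peak of mCherry DIV14. Egr3 had gene-end summits of 7 fragments in MICAL1-M1 DIV14, 3 in mCherry DIV7 and 11 in mCherry DIV14, with 2.68, 1.28 and 3.56 expected. Egr4 had 8, 8 and 12 in the same lists, with 2.95, 2.18 and 3.56 expected. Neither Egr3 nor Egr4 had a gene-end summit in TBC1D3 DIV14.

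Fos and Jun proteins pair to form the AP-1 transcription factor, and the 6 AP-1 genes differed widely. Jun, at 95049036 to 95052222 on chromosome 4, had a gene-end summit of 16 fragments in MICAL1-M1 DIV14 and of 22 in mCherry DIV14, with 2.89 and 3.56 expected. No gene-end summit of Jun was listed in TBC1D3 DIV14 or mCherry DIV7. The peak ranked 89 in MICAL1-M1 DIV14 (4.37-fold, q = 0.00101) and 19 in mCherry DIV14 (5.04-fold, q = 1.57e-06), with summits 743 and 546 bp upstream of the annotated start and almost equal widths of 1593 and 1594 bp. These summits are also within 1 kb of an end of the neighbouring non-coding gene Junos. Junb had pileups of 6 in TBC1D3 DIV14, 11 in MICAL1-M1 DIV14, 4 in mCherry DIV7 and 14 in mCherry DIV14, with 1.22, 2.81, 1.28 and 3.56 expected. The ranks of Junb were 3942 in TBC1D3 DIV14, 2859 in MICAL1-M1 DIV14, 72908 in mCherry DIV7 and 2371 in mCherry DIV14 (3.29-fold, q = 0.047). The peaks of mCherry DIV14 covered 77.4% of Junb, those of MICAL1-M1 DIV14 49.5% and those of TBC1D3 DIV14 55.1%, whereas no mCherry DIV7 peak touched the gene. Jund had pileups of 12 in MICAL1-M1 DIV14 (rank 7307), 5 in mCherry DIV7 (rank 61082) and 14 in mCherry DIV14 (3.26-fold, rank 3461, q = 0.047), with 3.55, 1.39 and 3.6 expected. The MICAL1-M1 DIV14 and mCherry DIV14 summits lay at the end where transcription stops, 5 bp from each other and near an end of Iqcn.

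Fos had gene-end pileups of 3 in TBC1D3 DIV14, 9 in MICAL1-M1 DIV14 and 19 in mCherry DIV14, with 1.34, 2.86 and 7.64 expected. In TBC1D3 DIV14 and MICAL1-M1 DIV14 the summit lay near the end where transcription stops, 2843 and 2805 bp after the start. In mCherry DIV14 it lay at −249 bp from the start, that is upstream, in a peak of 1770 bp, and 19 fragments over a high local expectation gave a fold of 2.31 and a rank of 36595. Fosb had a gene-end summit in mCherry DIV14 (11 fragments, 3.56 expected, rank 13035) and in no other list, and Fosl2 in MICAL1-M1 DIV14 (13 fragments, 5.25 expected, rank 40735, in a peak of 2873 bp) and in no other list. The promoters of 3 AP-1 genes are printed because they show the placing of the mCherry DIV14 peaks: the strongest peak covers the whole window at Fos and Junb, and at Jun it starts 43 bp upstream of the window. Each window runs from 250 bases before to 50 bases after the annotated start (RefSeq, GRCm38.p6), 5′ to 3′ on the gene's strand. Capitals mark the CRE core TGACG on either strand (the binding core of CREB and ATF factors), the TATA box TATAAA, and, in Jun, runs of G that fit a G-quadruplex pattern, a DNA fold that ATRX is known to bind. GC boxes and the MEF2 match of Jun are not marked.
Fos, chr12:85473640-85473939, plus strand: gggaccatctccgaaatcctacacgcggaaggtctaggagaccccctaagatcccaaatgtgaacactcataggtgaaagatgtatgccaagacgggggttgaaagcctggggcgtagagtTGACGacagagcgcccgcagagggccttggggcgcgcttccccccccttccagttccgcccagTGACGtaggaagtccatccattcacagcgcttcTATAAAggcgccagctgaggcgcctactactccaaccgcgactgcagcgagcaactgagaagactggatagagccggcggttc
Jun, chr4:95052173-95052472, minus strand: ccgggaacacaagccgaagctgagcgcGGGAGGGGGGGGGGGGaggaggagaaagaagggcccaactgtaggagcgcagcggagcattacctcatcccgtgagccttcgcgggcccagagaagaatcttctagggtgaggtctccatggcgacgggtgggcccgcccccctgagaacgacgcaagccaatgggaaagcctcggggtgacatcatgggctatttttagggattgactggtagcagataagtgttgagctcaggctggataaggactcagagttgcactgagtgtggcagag
Junb, chr8:84978699-84978998, minus strand: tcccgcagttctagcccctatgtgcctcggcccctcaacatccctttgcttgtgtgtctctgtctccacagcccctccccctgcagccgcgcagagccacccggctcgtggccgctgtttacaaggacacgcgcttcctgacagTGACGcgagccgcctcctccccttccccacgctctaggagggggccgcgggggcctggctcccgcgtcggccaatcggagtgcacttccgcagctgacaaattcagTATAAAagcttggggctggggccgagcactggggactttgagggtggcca
Fos holds the CRE core at 129 and 66 bases before its start and the TATA box at 33 bases before. Junb holds the CRE core at 106 bases before its start and the TATA box at the start itself.

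**Figure D2:**
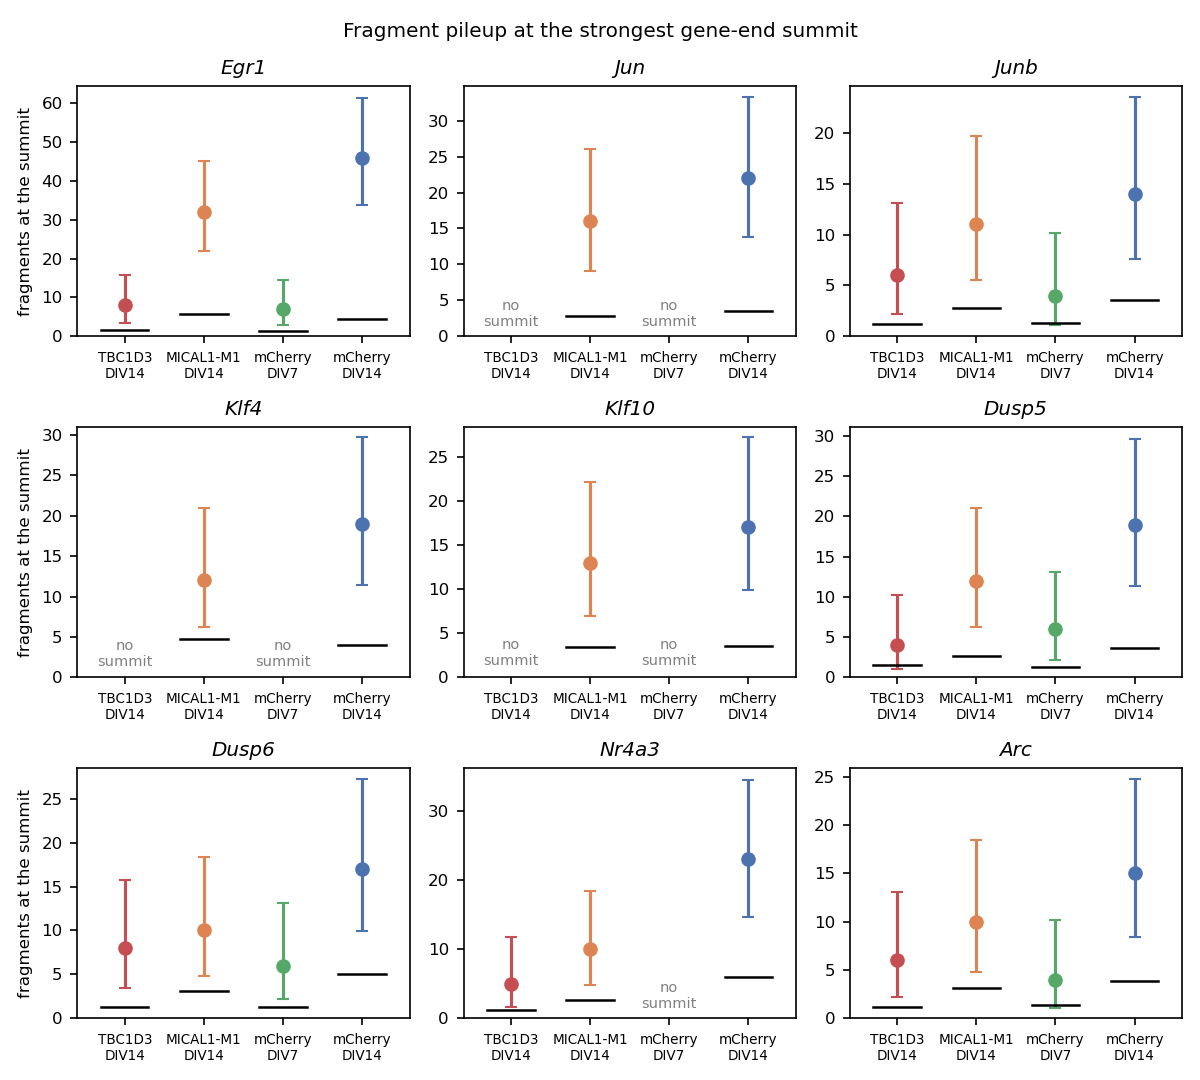
Fragments at the strongest gene-end summit of 9 genes in each peak list, each with 1 library. Points are pileups, bars their exact Poisson intervals at 95%, and black lines the locally expected number; each panel has its own scale. Egr1 reaches 46 fragments in mCherry DIV14, and Jun, Klf4 and Klf10 have no gene-end summit in TBC1D3 DIV14 or mCherry DIV7.

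Of the Krüppel-like zinc finger factors, Klf4 and Klf10 had strong gene-end peaks in mCherry DIV14. Klf4, a factor known for reprogramming and for restraining axon growth, had pileups of 12 in MICAL1-M1 DIV14 and 19 in mCherry DIV14, with 4.74 and 4.02 expected. The gene-end peak ranked 40692 in MICAL1-M1 DIV14, and that of mCherry DIV14 was 3616 bp wide and ranked 384 (3.98-fold, q = 0.000681), with its summit 272 bp past the start end, upstream. Another MICAL1-M1 DIV14 peak lay inside that mCherry DIV14 peak, with its summit outside the window. It had 9 fragments where 2.66 were expected (2.73-fold, rank 15773). Klf10, a TGF-beta-induced factor, had pileups of 13 in MICAL1-M1 DIV14 and 17 in mCherry DIV14, with 3.40 and 3.56 expected, and its peak ranked 2814 in MICAL1-M1 DIV14 and 398 in mCherry DIV14 (3.94-fold, q = 0.00229). Klf6 had 13 in MICAL1-M1 DIV14 and 16 in mCherry DIV14, with 3.40 and 4.20 expected and ranks of 2814 and 3433 (q = 0.0235 in mCherry DIV14). None of these 3 genes had a gene-end summit in TBC1D3 DIV14 or mCherry DIV7. Klf2 went the other way, with 9 fragments in MICAL1-M1 DIV14 (3.15 expected, rank 37432) and 5 in mCherry DIV7 (1.28 expected, rank 22617) and no summit in TBC1D3 DIV14 or mCherry DIV14, at its ends or in its body. The Klf4 promoter is printed because the mCherry DIV14 peak covers it whole and because it is the most CpG-rich of those shown, with 40 CpGs in 300 bases. Capitals mark the CRE core and a C-rich stretch that fits the G-quadruplex pattern on the other strand and holds matches to the EGR site GCGNGGGCG on that strand.
Klf4, chr4:55532426-55532725, minus strand: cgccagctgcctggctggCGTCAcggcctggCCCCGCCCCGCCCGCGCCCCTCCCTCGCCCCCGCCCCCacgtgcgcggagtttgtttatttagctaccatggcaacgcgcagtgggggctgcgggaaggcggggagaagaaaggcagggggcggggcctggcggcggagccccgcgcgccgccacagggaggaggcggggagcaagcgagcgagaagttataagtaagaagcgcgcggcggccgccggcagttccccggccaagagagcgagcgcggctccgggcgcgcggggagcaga

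The orphan nuclear receptors Nr4a1 to Nr4a3 differed from one another. Nr4a3 had pileups of 5 in TBC1D3 DIV14, 10 in MICAL1-M1 DIV14 and 23 in mCherry DIV14, with 1.22, 2.61 and 6.03 expected. These 3 summits lay within 200 bp of each other, at −738, −852 and −699 bp from the annotated start in that order, and the mCherry DIV14 peak had a q of 0.00141 (3.41-fold, rank 2044). The Nr4a3 peak ranked 16948 in TBC1D3 DIV14 and 3166 in MICAL1-M1 DIV14. Nr4a1 had gene-end summits of 5 fragments in TBC1D3 DIV14 (1.43 expected) and 10 in mCherry DIV14 (3.56 expected), at opposite ends of the gene. Its annotated start lies 12944 bp inside the span, where MICAL1-M1 DIV14 had a summit of 10 fragments at −128 bp and mCherry DIV14 of 11 fragments at −407 bp. Nr4a2 had gene-end summits of 4 fragments in TBC1D3 DIV14 and 6 in mCherry DIV7, with 1.22 and 1.28 expected and ranks of 60914 and 5598, and none in the full pair of lists. In the Nr4a2 body, the strongest summit had 17 fragments in MICAL1-M1 DIV14 (4.20 expected, q = 0.0244) and 17 in mCherry DIV14 (5.73 expected).

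Npas4, a neuron-specific factor that raises inhibitory input onto active cells, had gene-end summits of 3 fragments in TBC1D3 DIV14, 7 in MICAL1-M1 DIV14 and 3 in mCherry DIV7, with 1.22, 2.61 and 1.28 expected, and none in mCherry DIV14. Their ranks were 148325, 40775 and 164464 in the same order. All 3 lay at the end where transcription stops. Its annotated start is 13468 bp inside the span, and the nearest summits were 924 bp downstream in MICAL1-M1 DIV14 (7 fragments) and 131 bp downstream in mCherry DIV7 (5 fragments). Atf3, a stress-induced partner of AP-1 proteins, had 3, 13, 5 and 10 fragments in TBC1D3 DIV14, MICAL1-M1 DIV14, mCherry DIV7 and mCherry DIV14, with 1.22, 3.67, 1.28 and 3.84 expected. The ranks of Atf3 were 185176, 6545, 22617 and 38672 in the same order. Its TBC1D3 DIV14 and mCherry DIV7 summits lay downstream of the start, and the other two upstream. Maff, a small Maf protein, had a gene-end summit in MICAL1-M1 DIV14 alone (7 fragments, 2.61 expected, rank 40775). In mCherry DIV14 a Maff summit of 15 fragments lay inside the gene, 1082 bp from the end where transcription starts and just outside the window. It was 183 bp downstream of an annotated start inside the span. Per1, a repressor in the circadian clock, had gene-end summits of 6 fragments in TBC1D3 DIV14 (1.22 expected, rank 3942) and 13 in mCherry DIV14 (5.73 expected, rank 58733). Both lay past the end where transcription stops and near a pair of tRNA genes. The peak with a q of at most 0.05 at Per1 was in the body in mCherry DIV14, with 18 fragments where 3.82 were expected (3.94-fold, rank 583), 40 bp from an annotated start.

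Among the dual-specificity phosphatases, which switch off MAP kinases, Dusp5 and Dusp6 had gene-end summits in every list. Dusp5 had pileups of 4 in TBC1D3 DIV14, 12 in MICAL1-M1 DIV14, 6 in mCherry DIV7 and 19 in mCherry DIV14, with 1.53, 2.61, 1.28 and 3.67 expected. Its ranks were 139597 in TBC1D3 DIV14, 602 in MICAL1-M1 DIV14, 5598 in mCherry DIV7 and 195 in mCherry DIV14 (4.28-fold, q = 0.000223). In all 4 lists the Dusp5 summit was within 500 bp of the start. Dusp6 had pileups of 8 in TBC1D3 DIV14, 10 in MICAL1-M1 DIV14, 6 in mCherry DIV7 and 17 in mCherry DIV14, with 1.25, 3.15, 1.28 and 5.09 expected. The TBC1D3 DIV14 peak of Dusp6 had the highest fold of any gene-end peak of the 39 genes in that list (3.99-fold, rank 693), with its summit 903 bp downstream of the start. In mCherry DIV14 a single peak of 5630 bp covered the promoter and 80% of the gene, with its summit at −298 bp from the start and a fold of 2.95 (rank 6611, q = 0.047). The strongest gene-end peak of Dusp6 ranked 16604 in MICAL1-M1 DIV14 and 5598 in mCherry DIV7. A stronger MICAL1-M1 DIV14 peak of 2053 bp shared 1771 bp with the mCherry DIV14 peak. It had 14 fragments where 2.96 were expected (3.79-fold, rank 492). Its summit lay outside the window, at −1342 bp from the mCherry DIV14 summit. Dusp1 had 10 fragments in MICAL1-M1 DIV14 and 7 in mCherry DIV14, with 3.24 and 3.56 expected. The Dusp5 and Dusp6 promoters are printed because both genes have a gene-end summit in all 4 lists and the mCherry DIV14 peak covers both windows. At Dusp6 the gene-end summit of MICAL1-M1 DIV14 lies near the stop end. Capitals in Dusp5 mark 2 adjacent CArG boxes, the letters that SRF binds, at 82 and 72 bases before the start, and the CRE core on the other strand at 55 bases before; the Dusp6 window holds none of the motifs searched.
Dusp5, chr19:53528895-53529194, plus strand: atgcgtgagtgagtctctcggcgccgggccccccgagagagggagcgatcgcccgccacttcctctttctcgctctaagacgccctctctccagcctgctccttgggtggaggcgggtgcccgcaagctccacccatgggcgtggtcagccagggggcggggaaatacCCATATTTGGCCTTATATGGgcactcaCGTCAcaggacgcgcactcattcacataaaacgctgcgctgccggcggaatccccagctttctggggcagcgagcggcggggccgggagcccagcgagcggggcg
Dusp6, chr10:99262981-99263280, plus strand: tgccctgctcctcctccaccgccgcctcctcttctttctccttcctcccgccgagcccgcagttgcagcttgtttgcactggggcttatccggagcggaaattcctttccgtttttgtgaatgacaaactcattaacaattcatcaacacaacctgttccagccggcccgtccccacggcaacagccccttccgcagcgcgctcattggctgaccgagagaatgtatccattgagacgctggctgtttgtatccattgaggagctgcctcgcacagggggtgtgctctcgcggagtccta

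Growth control and feedback genes differed in peak width in mCherry DIV14, where the strongest gene-end peak was 349 bp wide at Gadd45g, 370 bp at Ier2, 511 bp at Gadd45b, 620 bp at Btg2, 627 bp at Ier3 and 3753 bp at Rgs2. Ier5, an immediate early regulator of the heat shock response, had gene-end summits of 5 fragments in TBC1D3 DIV14, 8 in MICAL1-M1 DIV14 and 5 in mCherry DIV7, with 1.80, 3.26 and 2.27 expected and ranks of 135125, 77069 and 162237. In mCherry DIV14 its summit was in the gene body, 1543 bp from the start, with 24 fragments where 4.46 were expected (4.58-fold, rank 98, q = 3.32e-06). That peak was 2572 bp wide and overlapped the peak of each other list, so Ier5 counts as unoccupied in mCherry DIV14 only by the place of its summit. Gadd45g, a stress sensor linked to DNA demethylation, had pileups of 8 in TBC1D3 DIV14 (3.69-fold, rank 797), 12 in MICAL1-M1 DIV14 (rank 2590), 6 in mCherry DIV7 (rank 18730) and 12 in mCherry DIV14 (rank 58058) at its strongest gene-end summit, with 1.44, 2.96, 1.48 and 5.12 expected. Its widest mCherry DIV14 peak, of 2752 bp, had 19 fragments over 9.55 expected. Gadd45b had 4, 8, 5 and 14 fragments in TBC1D3 DIV14, MICAL1-M1 DIV14, mCherry DIV7 and mCherry DIV14, with 1.34, 4.14, 1.28 and 4.93 expected. Its ranks were 135281, 121948, 22617 and 21026 in the same order.

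Rgs2, which shortens G protein signals, had 9 fragments in MICAL1-M1 DIV14 (3.67 expected) and 13 in mCherry DIV14 (3.56 expected), the last in a peak of 3753 bp over 46.2% of the gene. Btg2, an antiproliferative factor that promotes mRNA deadenylation, had 7 in MICAL1-M1 DIV14 (3.40 expected) and 13 in mCherry DIV14 (4.57 expected). Cyr61, a secreted matrix protein, had 9 in MICAL1-M1 DIV14 (2.62 expected) and 11 in mCherry DIV14 (3.82 expected). None of Rgs2, Btg2 and Cyr61 had a gene-end summit in TBC1D3 DIV14 or mCherry DIV7. Trib1, a pseudokinase, had gene-end summits of 10, 5 and 16 fragments in MICAL1-M1 DIV14, mCherry DIV7 and mCherry DIV14, with 4.20, 2.27 and 8.28 expected. By fold these Trib1 peaks were in the top 54.3%, 75.8% and 87.3% of their lists. Trib1 also had a body peak in mCherry DIV14 whose summit, 1043 bp from the gene's lower end, had 14 fragments (3.56 expected, q = 0.047). Sik1, a kinase that restrains CREB coactivators, had a gene-end summit in MICAL1-M1 DIV14 alone (5 fragments, 2.61 expected, rank 127835). Ier2 had 10, 5 and 12 fragments in MICAL1-M1 DIV14, mCherry DIV7 and mCherry DIV14, with 2.65, 1.28 and 5.09 expected. By fold these Ier2 peaks were in the top 4.47%, 10.6% and 59.6% of their lists. Ier3 had 5, 8 and 14 in TBC1D3 DIV14, MICAL1-M1 DIV14 and mCherry DIV14, with 1.22, 3.15 and 3.95 expected. By fold these Ier3 peaks were in the top 22.7%, 52.1% and 6.48%.

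Among the genes for synaptic and secreted products, Arc had a gene-end peak with a q of at most 0.05, in mCherry DIV14. Arc, which drives AMPA receptor endocytosis, had pileups of 6 in TBC1D3 DIV14, 10 in MICAL1-M1 DIV14, 4 in mCherry DIV7 and 15 in mCherry DIV14, with 1.22, 3.15, 1.33 and 3.82 expected. The folds of Arc were 3.16 in TBC1D3 DIV14 (rank 3942), 2.65 in MICAL1-M1 DIV14 (rank 16604), 2.14 in mCherry DIV7 (rank 142856) and 3.32 in mCherry DIV14 (rank 2153, q = 0.0289). The TBC1D3 DIV14 and mCherry DIV14 summits lay 31 bp apart, inside the gene and at −45 and −76 bp from its higher-numbered end, close to an end of the predicted gene Gm32994. The mCherry DIV7 summit lay near the other end. Nptx2, a secreted pentraxin that clusters AMPA receptors, had 4, 9, 5 and 12 fragments in TBC1D3 DIV14, MICAL1-M1 DIV14, mCherry DIV7 and mCherry DIV14, with 1.25, 2.61, 1.51 and 3.82 expected. Its ranks were 130045, 7705, 64841 and 12066 in the same order. Bdnf, a neurotrophin, had gene-end summits of 5 fragments in TBC1D3 DIV14, 6 in mCherry DIV7 and 14 in mCherry DIV14, with 1.83, 1.28 and 7 expected. The mCherry DIV7 peak of Bdnf was in the top 2.62% of its list by fold, and a body peak of MICAL1-M1 DIV14 in the top 0.96% (3.32-fold).

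Bdnf has 7 annotated starts. A summit lay within 1 kb of 4 of them in TBC1D3 DIV14, 3 in MICAL1-M1 DIV14, 3 in mCherry DIV7 and 4 in mCherry DIV14, and no list had a summit near either of the last 2 starts, at 34683 and 48221 bp into the gene. Homer1, a postsynaptic scaffold with a short activity-induced isoform, had a gene-end summit in mCherry DIV14 alone (10 fragments, 5.30 expected, rank 91660). Over its span and 1 kb on each side it had 5 summits in TBC1D3 DIV14, 13 in MICAL1-M1 DIV14, 4 in mCherry DIV7 and 16 in mCherry DIV14. Rheb, the GTPase that activates mTORC1, had 4, 12 and 14 fragments in TBC1D3 DIV14, MICAL1-M1 DIV14 and mCherry DIV14, with 1.53, 2.87 and 5.73 expected. Its MICAL1-M1 DIV14 gene-end peak ranked 1345 (3.36-fold), in the top 0.951% of that list, against rank 39390 in mCherry DIV14 (2.23-fold). A stronger mCherry DIV14 peak of Rheb fell just outside the window, with its summit 1131 bp downstream of the start. That peak was 1958 bp wide and had 12 fragments where 3.56 were expected (2.85-fold, rank 7468).

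Peaks took up a far larger share of these genes than of the median gene in the full pair of lists. The median share of a gene's span under peaks was 2.65% in TBC1D3 DIV14, 12.6% in MICAL1-M1 DIV14, 5.87% in mCherry DIV7 and 23.7% in mCherry DIV14 for the 39 genes, against 1.74%, 1.15%, 1.86% and 0.806% for all protein-coding genes. At least 20% of the span was under peaks for 3 of the 39 genes in TBC1D3 DIV14 (2.02% of all genes), 12 in MICAL1-M1 DIV14 (2.64%), 4 in mCherry DIV7 (1.98%) and 22 in mCherry DIV14 (3.09%). All of them were among the 25 genes of at most 10 kb, for which the shares of all genes of that length were 5.27%, 6.81%, 5.34% and 7.91% in the same order. With lists of equal size the counts were 2, 12, 3 and 22, against 1.07%, 2.28%, 0.987% and 3.09%. For the longer lists these too depend in part on the file order of peaks with equal p. The 20% limit was chosen after seeing the data.

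In mCherry DIV14 the share under peaks was highest for Gadd45g (81.7%), Dusp6 (80%), Junb (77.4%), Ier5 (72.2%) and Jun (63.4%). The same 5 genes had 0%, 12.8%, 55.1%, 9.60% and 12.2% in TBC1D3 DIV14, then 47.8%, 33.8%, 49.5%, 16.9% and 48.6% in MICAL1-M1 DIV14, and 33.1%, 27%, 0%, 9.85% and 0% in mCherry DIV7. Junb was the one of the 5 past 20% in TBC1D3 DIV14, and Gadd45g and Dusp6 were past it in mCherry DIV7. Arc had 54.1% in TBC1D3 DIV14, against 11.8% in mCherry DIV14. The TBC1D3 DIV14 share rests on few fragments: a body peak of 1369 bp with 4 (1.23 expected, rank 129293) and a gene-end peak of 913 bp with 6 (1.22 expected). The mCherry DIV14 peak had 15 fragments (3.82 expected, q = 0.0289). At the low end in mCherry DIV14 were Klf2 (0%), Atf3 (3.39%), Nr4a3 (3.92%), Sik1 (4.01%) and Npas4 (4.06%).

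**Figure D3:**
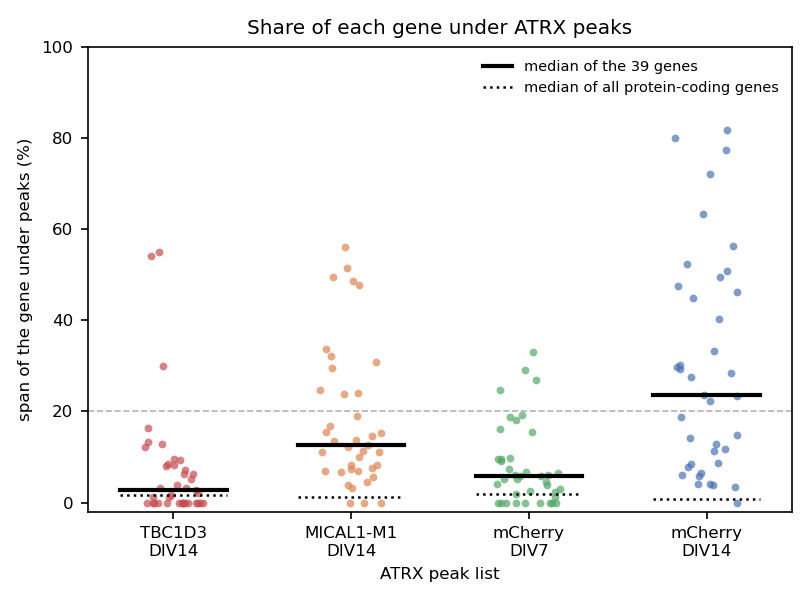
Share of each gene's span under ATRX peaks, in percent, for the 39 genes (points, spread sideways for clarity) in the 4 lists. Solid bars are medians of the 39 genes, dotted bars medians of all protein-coding genes, and the dashed line marks 20%. The median of the 39 genes reaches 23.7% in mCherry DIV14, against 0.806% for all genes.

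A gene-end peak of at least 1500 bp was present for none of the 39 genes in TBC1D3 DIV14 (0.101% of all genes), for 5 in MICAL1-M1 DIV14 (2.1%), for none in mCherry DIV7 (0.0594%) and for 10 in mCherry DIV14 (4.77%). Those in MICAL1-M1 DIV14 were Egr1, Fosl2, Jun, Atf3 and Trib1. Those in mCherry DIV14 were Egr1, Fos, Jun, Junb, Klf4, Klf10, Dusp6, Bdnf, Gadd45g and Rgs2. The median width of the strongest gene-end peak was 346 bp in TBC1D3 DIV14, 650 bp in MICAL1-M1 DIV14, 356.5 bp in mCherry DIV7 and 933 bp in mCherry DIV14, over the genes that had one. For all protein-coding genes with a gene-end summit the medians were 344, 551, 348 and 685 bp. The medians of the 39 genes had intervals at 95%, over genes, of 279 to 515, 554 to 1026, 311 to 448 and 518 to 1454 bp. That interval includes the all-gene median in TBC1D3 DIV14, mCherry DIV7 and mCherry DIV14, and starts just above it in MICAL1-M1 DIV14. Such intervals run over genes within 1 library and are no test. The median fold rank of these peaks was in the top 30.6% of the TBC1D3 DIV14 list, 12.4% of MICAL1-M1 DIV14, 10.6% of mCherry DIV7 and 13.5% of mCherry DIV14, against 30.6%, 23.9%, 34.1% and 21.6% for all genes. Intervals at 95% of the first 4 medians, over genes, were wide: 1.98% to 70.1%, 4.63% to 28.8%, 8.73% to 66.8% and 3.58% to 37.9%. Ranked by p, the medians were 30.9%, 12.4%, 10.7% and 13.2%, against 30.9%, 13.8%, 34.6% and 15% for all genes. In mCherry DIV7 a pileup of 5 over 1.28 expected ranked 22617, and 4 over 1.28 ranked 72908.

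**Figure D4:**
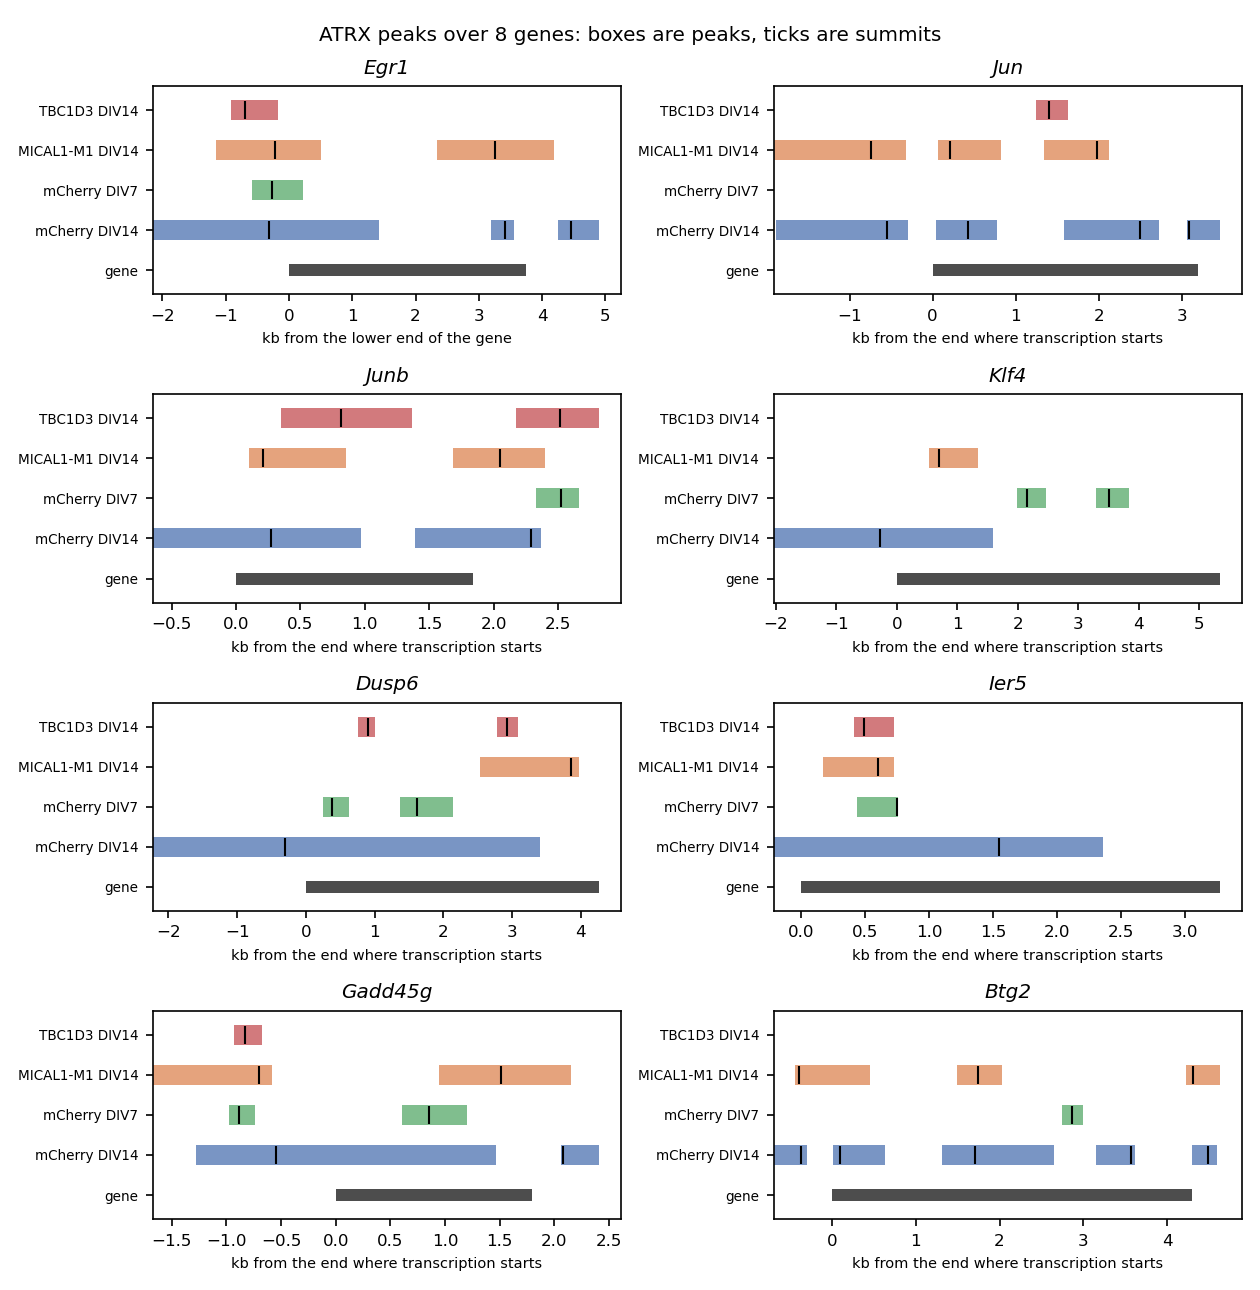
ATRX peaks at 8 genes in the 4 lists, drawn to scale in kb from the end where transcription starts (for Egr1, from the lower-numbered end). Boxes are peaks whose summit lies in the gene or within 1 kb of it, ticks are summits and the dark bar is the gene. The widest mCherry DIV14 boxes measure 3571 bp at Egr1, 3616 bp at Klf4, 5630 bp at Dusp6, 2752 bp at Gadd45g and 2572 bp at Ier5, each wider than any box of the other lists drawn for that gene.

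The end of the gene at which transcription starts or stops could be told for the 31 genes with an entry in the promoter table. At the start end, summits were found for 12 genes in TBC1D3 DIV14 (24.3% of all genes with an entry), 20 in MICAL1-M1 DIV14 (34.6%), 11 in mCherry DIV7 (24.2%) and 21 in mCherry DIV14 (39.7%). At the stop end, they were found for 6 in TBC1D3 DIV14 (13.1%), 12 in MICAL1-M1 DIV14 (7.82%), 5 in mCherry DIV7 (12.7%) and 12 in mCherry DIV14 (5.79%). A summit at the stop end was thus frequent among these genes in the full pair of lists, where it was rare among genes at large. In short genes both windows can overlap. Of the 19 genes of at most 10 kb, 3 in TBC1D3 DIV14 (13.3% of genes of that length), 11 in MICAL1-M1 DIV14 (8.13%), 4 in mCherry DIV7 (13.8%) and 11 in mCherry DIV14 (6.77%) had a stop-end summit.

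Around annotated starts, internal ones included, a larger share of the mCherry DIV14 summits lay upstream at these genes than at genes at large. Of summits within 1 kb of a start, 7 of 17 were upstream in TBC1D3 DIV14 (41.2%, against 36% at all genes), 17 of 34 in MICAL1-M1 DIV14 (50%, against 39.4%), 7 of 18 in mCherry DIV7 (38.9%, against 35.6%) and 19 of 33 in mCherry DIV14 (57.6%, against 38.5%). The median position in mCherry DIV14 was −173 bp at these genes and 102 bp at all genes, and 2 of the 33 summits (6.06%) lay within 100 bp of a start, against 16.4% at all genes. Jun, Klf4, Klf6, Dusp5, Dusp6, Nr4a3 and Fos are examples, with strongest summits from −699 to −249 bp. A window of 1 kb around any annotated start, used after seeing that the start of several genes lies inside the span, held a summit for 14 of 31 genes in TBC1D3 DIV14 (27.2% of all genes), 26 in MICAL1-M1 DIV14 (38.6%), 14 in mCherry DIV7 (27.1%) and 24 in mCherry DIV14 (43.8%).

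**Figure D5:**
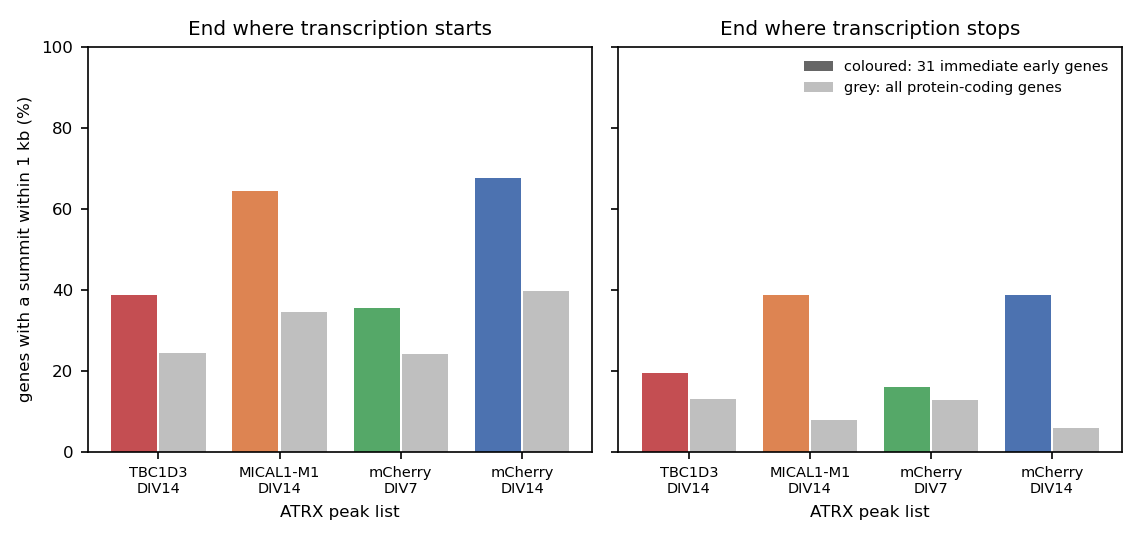
Share of genes, in percent, with a summit within 1 kb of the end where transcription starts (left) and stops (right), for the 31 immediate early genes with a known strand (coloured) and all protein-coding genes with one (grey), in the 4 lists. At the stop end 12 of 31 genes have a summit in MICAL1-M1 DIV14 and in mCherry DIV14, against 7.82% and 5.79% of all genes.

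The promoters of the 31 genes have 45 windows of 300 bases, with a median GC content of 62% and 21 CpGs, against 56.3% and 13 CpGs for 21262 windows of all genes. Motifs were searched on both strands. The CRE core TGACG was in 57.8% of the windows (23.6% of all windows), from 22 genes, and the full CRE TGACGTCA, which contains it, in 6.67% (2.23%), from Dusp1, Btg2 and Maff. The CArG box was in 11.1% (1.52%), from 4 windows of Egr2 and from Dusp5, and the MEF2 site in 11.1% (2.74%). The EGR site GCGNGGGCG was in 22.2% (7.52%) and the GC box GGGCGG, which can overlap it, in 64.4% (46.2%). The TATA box TATAAA was in 13.3% (12.6%), the AP-1 site TGANTCA in 2.22% (6.99%), from Bdnf, and the G-quadruplex pattern in 31.1% (22%). At genes at large the share of windows with a summit within 1 kb went up with GC content, from 12.1% of windows of 12.3% to 48.3% GC to 70.5% of those of 65% to 89.3% in mCherry DIV14. Among windows of 56.7% to 64.7% GC, 38.1% of the 21 windows of these genes had one in TBC1D3 DIV14 (28% of all windows), 81% in MICAL1-M1 DIV14 (47.5%), 47.6% in mCherry DIV7 (27%) and 85.7% in mCherry DIV14 (56.1%). Among windows of 65% to 89.3% GC the shares of 14 windows were 35.7% in TBC1D3 DIV14 (40.5%), 85.7% in MICAL1-M1 DIV14 (62%), 35.7% in mCherry DIV7 (40%) and 71.4% in mCherry DIV14 (70.5%). In mCherry DIV14 the windows thus stood above all windows at 56.7% to 64.7% GC and level with them at the highest. These windows are not independent, since several starts of 1 gene can enter. The Egr2 starts at 67537566, 67537869 and 67537870, whose windows overlap or nearly adjoin, all count at 56.7% to 64.7% GC.

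The 3 comparisons below share the mCherry DIV14 library, so any peculiarity of that library enters each of them. TBC1D3 DIV14 and mCherry DIV14 both had a gene-end summit at 16 genes, which were 84.2% of those with one in TBC1D3 DIV14 and 51.6% of those with one in mCherry DIV14 (53.5% and 42.3% over all genes). In TBC1D3 DIV14 and not in mCherry DIV14 were Npas4, Nr4a2 and Ier5 (15.6% of all genes), with 3, 4 and 5 fragments. In mCherry DIV14 and not in TBC1D3 DIV14 were 15 genes (24.4% of all genes), among them Jun, Jund, Klf4, Klf6 and Klf10 of those with a q of at most 0.05. The other 10 were Egr3, Egr4, Fosb, Ier2, Dusp1, Btg2, Homer1, Rgs2, Cyr61 and Trib1.

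MICAL1-M1 DIV14 and mCherry DIV14 shared 26 genes, which were 78.8% of those of MICAL1-M1 DIV14 and 83.9% of those of mCherry DIV14 (70% and 64.1% over all genes). A gene-end summit in MICAL1-M1 DIV14 and none in mCherry DIV14 was found for 7 genes (11.6% of all genes), namely Egr2, Fosl2, Npas4, Klf2, Ier5, Maff and Sik1, with pileups from 5 to 13. The reverse was found for Fosb, Nr4a1, Homer1, Bdnf and Per1 (15.2% of all genes), with pileups from 10 to 14. None of these 12 peaks had a q of at most 0.05.

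mCherry DIV7 and mCherry DIV14 shared 15 genes, which were 75% of those of mCherry DIV7 and 48.4% of those of mCherry DIV14 (52.8% and 41.5% over all genes). In mCherry DIV7 and not in mCherry DIV14 were Egr2, Npas4, Nr4a2, Klf2 and Ier5 (15.7% of all genes), with 3 to 6 fragments. In mCherry DIV14 and not in mCherry DIV7 were 16 genes (24.7% of all genes), among them Jun, Nr4a3, Klf4, Klf6 and Klf10 of those with a q of at most 0.05, and Fos.

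Peaks were also compared by position, with an overlap of at least 1 bp. The 11 genes had 12 gene-end peaks with a q of at most 0.05 in mCherry DIV14, of which 8 were overlapped by a TBC1D3 DIV14 peak (37.4% of all such gene-end peaks), all 12 by a MICAL1-M1 DIV14 peak (72.4%) and 6 by a mCherry DIV7 peak (35.7%). Peak width was not matched, and some overlaps were slight. Junb shared 33 bp and Klf10 97 bp with mCherry DIV7, and Arc 27 bp with MICAL1-M1 DIV14. The overlapping summit lay 1761 bp away for Klf4 in TBC1D3 DIV14 and 1280 bp for Jun in mCherry DIV7. Others lay wholly inside, as at Egr1 in every list. Taking every gene-end peak of the 39 genes in mCherry DIV14, 13 of 48 were overlapped by TBC1D3 DIV14 (27.1%, against 25.1% at all genes), 31 by MICAL1-M1 DIV14 (64.6%, against 51.5%) and 11 by mCherry DIV7 (22.9%, against 23.7%). In the other direction, mCherry DIV14 peaks overlapped 11 of 21 gene-end peaks of TBC1D3 DIV14 (52.4%, against 30.5%), 37 of 46 of MICAL1-M1 DIV14 (80.4%, against 55.2%) and 12 of 23 of mCherry DIV7 (52.2%, against 29.4%).

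Within the genes and 1 kb on each side, a summit was found for 27 of 39 genes in TBC1D3 DIV14 (66.6% of all genes), for all 39 in MICAL1-M1 DIV14 (59.3%), for 33 in mCherry DIV7 (67.7%) and for 38 in mCherry DIV14 (57.2%), Klf2 being the exception. Summits lay just on either side of the 1 kb limit at a few genes. Just inside were the MICAL1-M1 DIV14 summits of Egr3 at 985 bp and Dusp1 at 966 bp. Just outside were a TBC1D3 DIV14 summit of Nr4a3 at 1011 bp and mCherry DIV14 summits of Trib1 at 1043 bp (3.29-fold) and Dusp1 at 1056 bp.

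Related genes were counted in the same way, as lists chosen with earlier results of these data known, and their counts stand beside 33.4% of all genes in TBC1D3 DIV14, 38.7% in MICAL1-M1 DIV14, 33.2% in mCherry DIV7 and 42.3% in mCherry DIV14. Of 22 other immediate early genes, 8 had a gene-end summit in TBC1D3 DIV14 (36.4%), 18 in MICAL1-M1 DIV14 (81.8%), 12 in mCherry DIV7 (54.5%) and 16 in mCherry DIV14 (72.7%), with a q of at most 0.05 for 1 in MICAL1-M1 DIV14 and 7 in mCherry DIV14. The 2 with the highest fold in mCherry DIV14 were Ier5l (4.82-fold, rank 32), a relative of Ier5, and Btg1 (4.30-fold, rank 184), a relative of Btg2. In MICAL1-M1 DIV14 they were Dusp4 (3.65-fold) and Plk2 (3.32-fold), in mCherry DIV7 Plk2 (3.58-fold) and Crem (3.23-fold), and in TBC1D3 DIV14 Crem (3.11-fold) and Ier5l (3.09-fold). Of 42 genes for upstream signalling and transcription factors, such as receptors, kinases, CREB and SRF partners, 21 had a gene-end summit in TBC1D3 DIV14 (50%), 26 in MICAL1-M1 DIV14 (61.9%), 18 in mCherry DIV7 (42.9%) and 27 in mCherry DIV14 (64.3%), with a q of at most 0.05 for 3 in mCherry DIV14. Grin2b, an NMDA receptor subunit, had the highest fold among them in TBC1D3 DIV14 (3.6-fold), MICAL1-M1 DIV14 (3.32-fold) and mCherry DIV14 (3.72-fold), and Adcy1 and Braf shared the highest in mCherry DIV7 (3.50-fold). Of 15 late response genes, 8 had one in TBC1D3 DIV14 (53.3%), 9 in MICAL1-M1 DIV14 (60%), 5 in mCherry DIV7 (33.3%) and 8 in mCherry DIV14 (53.3%), with a q of at most 0.05 for 1, Scg2, in MICAL1-M1 DIV14. The highest folds among them were those of Igf1 in TBC1D3 DIV14 (2.71-fold), Scg2 in MICAL1-M1 DIV14 (3.88-fold) and mCherry DIV14 (2.70-fold), and Cck and Gpr3 together in mCherry DIV7 (2.63-fold).

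Marker genes of cell types were counted too, although a summit at a marker says nothing of its expression. Their counts stand beside the same shares of all genes: 33.4% in TBC1D3 DIV14, 38.7% in MICAL1-M1 DIV14, 33.2% in mCherry DIV7 and 42.3% in mCherry DIV14. Of 6 neuron markers, 1 had a gene-end summit in TBC1D3 DIV14 (16.7%), 4 in MICAL1-M1 DIV14 (66.7%), 3 in mCherry DIV7 (50%) and 4 in mCherry DIV14 (66.7%). The counts of 6 were 3, 2, 3 and 2 for astrocytes, 1, 0, 2 and 0 for microglia, 3, 3, 3 and 4 for the oligodendrocyte lineage and 3, 1, 4 and 2 for endothelium and fibroblasts, in the same order of lists. A q of at most 0.05 was reached by 1 neuron marker, Snap25, and 1 astrocyte marker, Sox9, both in mCherry DIV14.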

How the data were processed

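ATRX ChIP-seq was measured in 4 libraries, from paired-end HiSeq reads of chromatin cut by an enzyme, with input DNA as background, per the labels' protocols. The submitters' processing notes name MACS 1.4.2, ChIPseeker 1.26.2, Bowtie 1.3.0 and SAMtools 1.9 without saying what each did, and name no build. The deposited lists have no header and follow the narrowPeak layout, 1 list for each library. The authors' score per peak was not used. The deposited fold is a ratio of pileup to local expectation, with 1 added to each. The deposited −log10 values are those of the p-value and the q-value, and the deposited summit offset gave the summit. Peaks in the list of the library labelled MICAL1-M1 carry names that begin with M2, so which construct it holds could not be checked. The caller is not stated in the lists.

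Chromosome names are those of GRCm38, and gene spans came from RefSeq for GRCm38.p6, without exons; strand and start came from RefSeq promoter windows, which 31 of the 39 genes have. No other column of per-sample values was left out (0). Pileups were recovered from fold and p within 0.001 in log10 p, and recovery and window counts were tested on simulated data. A promoter window has 250 bases before and 50 after the start. The CArG box, the MEF2 site and the G-quadruplex pattern were searched as their usual consensus. Ranks use fold, ties sharing the best rank. Python 3.11.15, numpy 2.4.6, pandas 2.3.3, scipy 1.17.1 and matplotlib 3.10.9 were used.

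The 39 genes and the other gene lists were chosen with earlier results of these data known. Named with pileup, expected number and fold rank were genes with a q of at most 0.05 at an end in mCherry DIV14, genes with a gene-end summit in all 4 lists, in mCherry DIV14 alone, or in another list and not in mCherry DIV14; of other lists, the 2 highest folds. No p-value was computed between groups, since each has 1 library. Alternatives covered the window, summit or any base, the q limit, equal list sizes, the 4000 strongest peaks, each gene end, and the gene body.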

Additional observations from a re-analysis of the deposited data

How the results depend on the processing

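Counts of genes with a summit moved most with the limit on peaks. At a q of at most 0.05 they were 0 in TBC1D3 DIV14, 2 in MICAL1-M1 DIV14, 0 in mCherry DIV7 and 11 in mCherry DIV14, and when lists held their 4000 strongest peaks, 3, 10, 1 and 11. With lists of equal size TBC1D3 DIV14 had 10 and mCherry DIV7 13, where peaks of equal p at the cut were kept in file order. A window of 0.5 kb gave 10 in TBC1D3 DIV14, 11 in mCherry DIV7 and 19 in mCherry DIV14, one of 3 kb gave 34 in mCherry DIV7, and the gene body gave 33 there. At the start end alone the counts were 12 in TBC1D3 DIV14, 20 in MICAL1-M1 DIV14 and 11 in mCherry DIV7, and at the stop end alone 6 in TBC1D3 DIV14, 12 in MICAL1-M1 DIV14, 5 in mCherry DIV7 and 12 in mCherry DIV14; only genes with a known strand enter these.

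TBC1D3 DIV14 minus mCherry DIV14 was −12 genes, −21 with lists of equal size and −6 at the stop end. mCherry DIV7 minus mCherry DIV14 was −11, −18 with lists of equal size, −4 with the 3 kb window and −5 over the gene body. MICAL1-M1 DIV14 minus mCherry DIV14 was 2 and turned to −1 with the 3 kb window, with any base of the peak, with the 4000 strongest peaks and at the start end, and to −9 at a q of at most 0.05. The sign of that difference is thus set by the choice, and the cause was not tested. Under lists of equal size, added after seeing the data, the stop-end counts were 2 in TBC1D3 DIV14 and 2 in mCherry DIV7, against 6 and 5 with full lists. All counts and differences under lists of equal size depend in part on the file order of peaks with equal p. The other 52 values, medians of rank and width included, stayed within the limits used, but those limits were loose. Within them the MICAL1-M1 DIV14 count fell from 33 to 22 with the 0.5 kb window. The mCherry DIV14 count fell from 31 to 21 at the start end, and that of TBC1D3 DIV14 rose from 19 to 28 with the 3 kb window. No paired analysis was possible because each group has 1 library. The lowest gene-end pileup of the 39 genes was 3 fragments in TBC1D3 DIV14 and mCherry DIV7, 5 in MICAL1-M1 DIV14 and 7 in mCherry DIV14; the part of depth in the counts was not tested.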
